A study of Mus musculus with 7 samples.

Results

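The molecular motors of the cytoskeleton were described in MN9D, a mouse hybrid of midbrain neuron and neuroblastoma that makes dopamine. Members were probe sets whose single array gene symbol began with Kif and a digit or c, Klc, Dync, Dynl, Dctn, or Myo and a digit. The rule found 125 probe sets of 65 genes, among 12393 genes with 1 symbol on the array. Where a gene had several, the brightest on average across the 7 arrays stood for it. By role they comprised 9 mitotic kinesins, 19 transport kinesins and kinesin light chains, 3 other kinesins, 15 dynein and dynactin genes and 19 myosins.

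The arrays came from 4 samples of MN9D cells labelled as overexpressing both the alpha and the beta chain of mouse hemoglobin and from 3 samples with the empty vector. The comparison asks how expression of globin changes the cells' transcripts. The labels name neither a time nor a dose, do not say whether a line was 1 clone, and do not say that replicates came from separate cultures, so a p-value here reflects array-to-array spread alone, and that may be technical. All 7 samples share the MN9D background, RNA extraction and labelling.

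Kinesins and dyneins are motors that walk along microtubules on energy from ATP. Most kinesins carry cargo towards the plus end, which in an axon points away from the cell body, while cytoplasmic dynein with its activator dynactin carries cargo back. A separate set of kinesins builds the mitotic spindle, moves chromosomes and divides the cell. Myosins move on actin filaments, where they carry vesicles over short distances and act on membranes. Long-range transport by these motors supplies the axons of neurons, dopaminergic ones included.

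Values are deposited RMA expression values on the log2 scale, and a difference is globin-labelled minus empty vector on that scale, with limma's standard error after the ± sign (4 arrays against 3). A gene was called changed at a limma adjusted p under 0.05 over 22626 probe sets. Pairs of arrays correlated at 0.9985 to 0.9990 within a group and at 0.9903 to 0.9917 across groups, and precision is limited by how few arrays there are. Of the globin probe sets, 3 that carry the symbols of Hba-a1 and of Hba-a2 were 35.8-fold to 142-fold higher in the globin-labelled arrays, while no beta-globin probe set was more than 1.26-fold higher, so these probe sets show no like rise for the beta chain, and the samples are called globin-labelled. Of 4 dopaminergic markers Th and Ddc fell and 2 were not called, Th with means of 11.08 in the globin-labelled arrays and 11.78 in the empty vector arrays. Of 4 general neuronal markers 2 rose (Prph and Ina) and 2 fell (Tubb3 and Stmn2). Of 11 measured markers of glia, blood-derived cells and fibroblasts 4 lay below the 10th percentile of all probe set means, and 7 above it. Of the 11, 9 were not called, while Cd68 fell by 1.25 and Mbp fell by 0.70, and the part of these differences in the results below was not tested.

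Among the 65 motor genes 12 rose and 16 fell, and 37 were not called. The 28 called are 43.1% of the motors, beside 40.7% of all genes, so the number of calls does not set the motors apart. Their median difference was -0.01, beside 0.02 over all genes. Most changes were small, since 2 of the 65 changed by 1.5-fold or more (Klc1 and Myo7a, both lower), beside 5.28% of all genes. The groups did not overlap for 32 of the 65, beside 45.7% of all genes, and these included each of the 28 called. In RNA from whole cultures, fewer cells expressing a gene and less RNA per cell cannot be told apart.

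**Figure D1:**
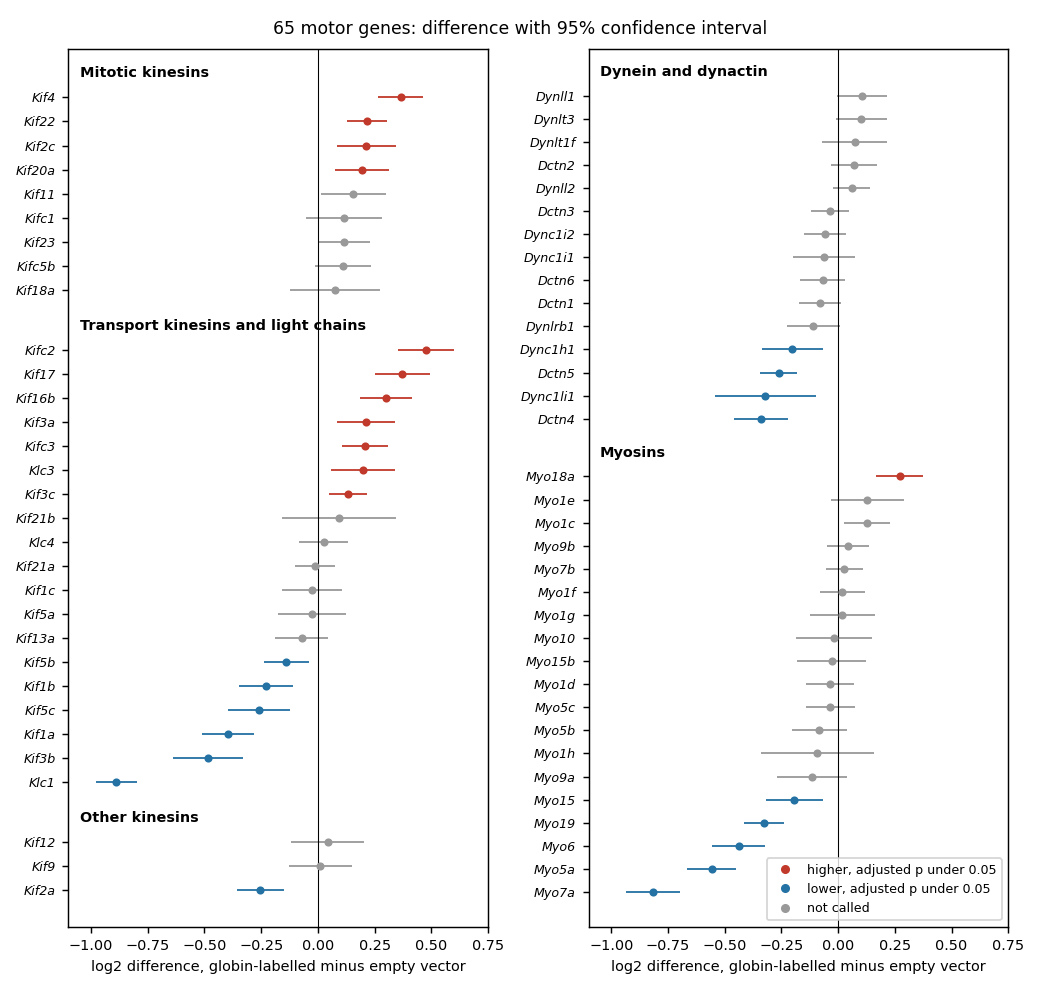
The log2 difference, globin-labelled minus empty vector, is plotted for each of the 65 motor genes with its 95% confidence interval (4 and 3 arrays), grouped by role. The 9 mitotic kinesins all lie right of 0, whereas called transport kinesins lie on both sides and called dynein and dynactin genes lie left of 0.

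Genes of the mitotic kinesins were higher or showed no call. Of 9 measured, 4 rose and 0 fell in limma, beside 20.6% of all genes higher and 20.1% lower. At an unadjusted p under 0.05, 5 were higher and 0 lower, and a plain two-sample test called 3 higher and 0 lower. All 9 differences were above 0, as were 55.5% of those of all genes, and their median was 0.16. These counts hold for the list as drawn. Kif2a, which also acts at spindle poles, is placed among the other kinesins and fell by 0.25 ± 0.05 (limma adjusted p = 0.00184). The kinetochore kinesin Cenpe, outside the rule, rose by 0.49 ± 0.07 (limma adjusted p = 0.000491).

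The promoters of these genes are shown because 4 of them rose together and because many mitotic genes carry a cell cycle homology element and CCAAT boxes near their start. RefSeq promoter sequences (GRCm38.p6) were matched for 8 of the 9 genes, all but Kif20a, which is among the 4 that rose. The 250 bases before the start were searched on both strands for CCAAT and for TTTGAA or TTTAAA, the core of that element. The motifs do not overlap each other in the stretches below, where capitals mark the matches as they read 5′ to 3′ on the gene's strand and bases inside the annotated gene are not printed. Kif11, which was not called, was added after its values were seen, as a gene that holds both motifs in an uninterrupted stretch.
Kif4 (chrX:100625905-100626064, plus strand): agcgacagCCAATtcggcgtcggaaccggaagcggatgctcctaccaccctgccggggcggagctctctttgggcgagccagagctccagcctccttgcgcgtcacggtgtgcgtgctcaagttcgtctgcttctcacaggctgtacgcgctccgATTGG
Kif22 (chr7:127042468-127042580, minus strand): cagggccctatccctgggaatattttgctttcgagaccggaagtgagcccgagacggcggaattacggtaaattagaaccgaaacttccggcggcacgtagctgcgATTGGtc
Kif11 (chr19:37376222-37376381, plus strand): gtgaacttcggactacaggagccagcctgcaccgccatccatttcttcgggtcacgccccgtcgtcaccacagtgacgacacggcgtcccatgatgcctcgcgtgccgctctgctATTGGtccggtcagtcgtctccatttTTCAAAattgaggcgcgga
A CCAAT match lay in 6 of the 8 promoters, beside 33.8% of 32851 promoters of the same length. A TTTGAA or TTTAAA match lay in 3 of 8, beside 25.2%. The 6 include Kifc1 and Kifc5b, whose promoters are nearly the same, and the 8 include the 5 genes that were not called. Both were found together in Kif11 and Kif22, where the reverse-strand TTTGAA lay from 19 and from 17 bases before the start (for Kif22 in the bases not printed), that is 2 of 8, beside 8.78% of all promoters. For Kif2c all 160 bases before the start used lie inside the annotated gene, so no stretch of it is shown. Some counted matches thus lie inside the annotated gene and not upstream of it. They are the CCAAT of Kif23, the TTTGAA of Kif22 nearest the start and the TTTGAA of Kif2c. A match describes these letters and says nothing of binding.

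Kif4, a chromokinesin that compacts chromosomes and works at the spindle midzone, differed most among the mitotic kinesins. Its 4 globin-labelled arrays read 10.36, 10.33, 10.40 and 10.31, against 10.05, 9.98 and 9.92 in the empty vector arrays, with no overlap. The difference was 0.37 ± 0.04, or 1.29-fold (limma adjusted p = 0.000183). Kif22, a further chromokinesin that pushes chromosome arms towards the spindle equator, read 12.59, 12.67, 12.61 and 12.67 in globin-labelled arrays, against 12.42, 12.43 and 12.41 in empty vector arrays. Every globin-labelled value lay above every empty vector value. It rose by 0.22 ± 0.04 (limma adjusted p = 0.00197), and both of its other probe sets rose more, by 0.45 ± 0.07 and 0.35 ± 0.06.

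Kif2c, which takes tubulin off microtubule ends at centromeres, read 9.31, 9.28, 9.45 and 9.47 in globin-labelled arrays and 9.18, 9.10 and 9.21 in empty vector arrays. The groups stood apart by a narrow margin, and Kif2c rose by 0.21 ± 0.06 (limma adjusted p = 0.0160). Of its other 3 probe sets 1 rose and 2 were not called, all with differences above 0. Kif20a, a kinesin needed for cytokinesis, read 10.07, 10.03, 10.05 and 9.89 in globin-labelled arrays against 9.77, 9.83 and 9.85 in empty vector arrays, and rose by 0.19 ± 0.05 (limma adjusted p = 0.0158). The lowest globin-labelled value, of array 4, was close to the highest empty vector value. Without empty vector array 2 Kif2c was not called (0.18, limma adjusted p = 0.0655), nor was it by the plain two-sample test (adjusted p = 0.0567), and without empty vector array 1 Kif20a was not called (0.17, limma adjusted p = 0.0579).

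The other 5 mitotic kinesins were not called, with differences of 0.08 to 0.16. Kif23, which forms the centralspindlin complex of dividing cells with Racgap1, read 9.62, 9.51, 9.63 and 9.48 in globin-labelled arrays against 9.47, 9.47 and 9.39 in empty vector arrays. These values did not overlap, but 0.11 ± 0.05 did not pass (limma adjusted p = 0.110). Kif11, the motor that pushes spindle poles apart, stood at 0.16 ± 0.06 (limma adjusted p = 0.0823), while of its other 2 probe sets 1 rose by 0.20 ± 0.06 and 1 was not called (-0.06 ± 0.09). Without empty vector array 1 Kif11 passed (0.21, limma adjusted p = 0.0470), and it and Kif23 passed after a second quantile normalization. Kif18a, which damps chromosome movements, differed by 0.08 ± 0.09, the spindle-focusing motor Kifc1 by 0.11 ± 0.07 and its close relative Kifc5b by 0.11 ± 0.05. Signals of such near-identical copies may be shared.

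Most but not all general markers of proliferation rose, as the called mitotic kinesins did. Of 5 measured, Ccnb2, Cdk1, Top2a and Mki67 rose, by 0.50, 0.43, 0.39 and 0.23, and Pcna fell by 0.21. Their log2 levels summed to 58.58 to 58.94 in globin-labelled arrays and to 57.34 to 57.47 in empty vector arrays. The part of the share of dividing cells in the kinesin differences was not tested.

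**Figure D2:**
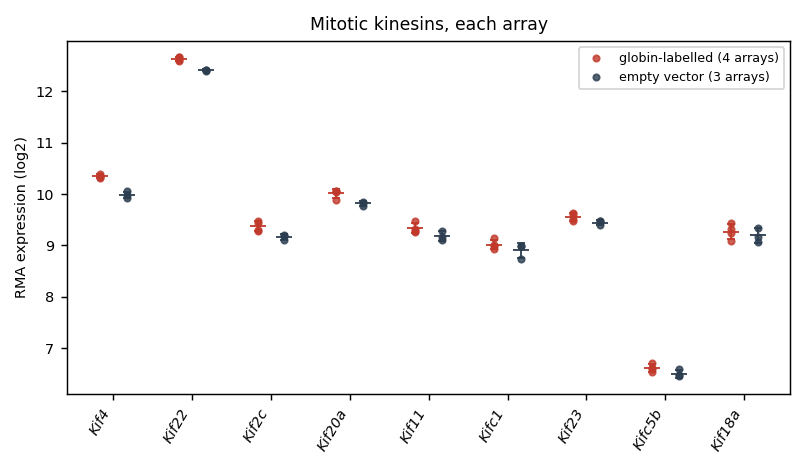
RMA expression on the log2 scale is plotted for each mitotic kinesin, a dot per array, with globin-labelled arrays (4) left of empty vector arrays (3), and bars for the mean ± SD. The groups stand apart for Kif4, Kif22, Kif2c, Kif20a and Kif23 and overlap for the other 4, while levels of different genes are not comparable.

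Transport kinesins changed in both directions. Of 19 genes, 7 rose and 6 fell, so that 68.4% were called beside 40.7% of all genes, and their median difference was -0.01. The falls were in kinesin-1 genes (Klc1, Kif5b and Kif5c), in kinesin-3 genes (Kif1a and Kif1b) and in Kif3b. The rises were in the minus-end kinesins Kifc2 and Kifc3, in Kif3a, Kif3c and Kif17 of kinesin-2, in Kif16b and in Klc3. Whether these families differ from each other was not tested.

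Kinesin-1, the main anterograde carrier, pairs Kif5 heavy chains with Klc light chains that hold the cargo. Klc1, a light chain abundant in neurons, read 10.35, 10.32, 10.35 and 10.42 in the globin-labelled arrays, against 11.23, 11.26 and 11.26 in the empty vector arrays. The gap between the groups was far wider than the range within either. Klc1 fell by 0.89 ± 0.04 and was 1.85-fold lower (95% confidence interval -0.98 to -0.80, limma adjusted p = 5.07e-07), the widest difference among the 65 motors. Of its other 2 probe sets 1 fell by 0.64 ± 0.09 and 1 was not called (-0.13 ± 0.06).

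The heavy chain genes Kif5b and Kif5c were also lower. Kif5c, a neuronal heavy chain, read 11.39, 11.27, 11.31 and 11.14 in globin-labelled arrays and 11.47, 11.58 and 11.56 in empty vector arrays, a fall of 0.26 ± 0.06 (limma adjusted p = 0.00732). Kif5b, the heavy chain of most cell types, read 12.29, 12.22, 12.29 and 12.35 against 12.38, 12.45 and 12.46, globin-labelled arrays first. It fell by 0.14 ± 0.04 (limma adjusted p = 0.0317), and of its other 4 probe sets 3 fell and 1 was not called, with differences of -0.53 to -0.12. Kif5a, a heavy chain restricted to neurons, overlapped between the groups (-0.03 ± 0.07).

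The remaining light chains did not follow Klc1. Klc3 rose by 0.20 ± 0.06 (limma adjusted p = 0.0317), with 8.57, 8.34, 8.40 and 8.40 in globin-labelled arrays and 8.21, 8.32 and 8.16 in empty vector arrays. Klc4 was not called, with 9.81, 9.81, 9.85 and 9.91 in globin-labelled arrays and 9.85, 9.87 and 9.74 in empty vector arrays (0.03 ± 0.05, 95% confidence interval -0.08 to 0.13). The calls of Kif5b and Klc3 were each lost when any of 5 single arrays was left out. Kif5b was not called without globin-labelled array 1, 2 or 3 or empty vector array 2 or 3 (limma adjusted p = 0.0582 to 0.0958). Klc3 was not called without globin-labelled array 1, 3 or 4 or empty vector array 1 or 3 (limma adjusted p = 0.0535 to 0.113), nor by the plain two-sample test (adjusted p = 0.0928).

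Genes of kinesin-2, a family that serves axons and builds cilia, split. Kif3b, which joins Kif3a in the common heterodimer, read 10.45, 10.56, 10.38 and 10.42 in globin-labelled arrays, against 11.09, 10.83 and 10.89 in empty vector arrays. Every globin-labelled value was lower, the fall was 0.48 ± 0.07 (1.40-fold lower, limma adjusted p = 0.000468), and all of its other 3 probe sets fell too, with differences of -0.46 to -0.25. Its partner Kif3a rose by 0.21 ± 0.06 (limma adjusted p = 0.0144), with 11.72, 11.64, 11.73 and 11.64 in globin-labelled arrays and 11.34, 11.54 and 11.53 in empty vector arrays. Both Kif3a probe sets rose in limma, but the plain two-sample test did not call the brighter one (adjusted p = 0.0514). Kif3c, the alternative partner of Kif3a, rose by 0.13 ± 0.04 (limma adjusted p = 0.0201), a call lost without globin-labelled array 2 (limma adjusted p = 0.0530) or empty vector array 2 (limma adjusted p = 0.0673). The cargo-binding subunit Kifap3, not a member, was not called (-0.04 ± 0.04). Kif17, a kinesin-2 that carries receptor vesicles into dendrites, read 8.69, 8.78, 8.78 and 8.91 in globin-labelled arrays against 8.45, 8.43 and 8.37 in empty vector arrays. It rose by 0.37 ± 0.05 (1.29-fold, limma adjusted p = 0.000561), and 1 of its other 2 probe sets rose as well.

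In kinesin-3, the carriers of synaptic vesicle precursors fell. Kif1a read 9.62, 9.49, 9.51 and 9.47 in globin-labelled arrays, against 9.84, 9.96 and 9.95 in empty vector arrays. It fell by 0.40 ± 0.05 (1.32-fold lower, limma adjusted p = 0.000273), and its other probe set fell by 0.33 ± 0.08. Kif1b, which also moves mitochondria, read 11.84, 11.73, 11.84 and 11.88 in globin-labelled arrays and 12.00, 12.14 and 12.01 in empty vector arrays. It fell by 0.23 ± 0.05 (limma adjusted p = 0.00719), and of its other 6 probe sets 4 fell and 2 were not called, with differences of -0.45 to 0.07. Kif1c (-0.03 ± 0.06) and Kif13a (-0.07 ± 0.05), which carries vesicles from the Golgi, were not called. Kif16b, a motor of early endosomes, read 4.41, 4.58, 4.47 and 4.57 in globin-labelled arrays and 4.25, 4.21 and 4.17 in empty vector arrays, a difference of 0.30 ± 0.05 (limma adjusted p = 0.00140). All of these values lay below each array's 10th percentile of 5.36 to 5.44, and its other probe set was not called (-0.05 ± 0.06), so the rise is one of dim signal.

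Both minus-end kinesins of the transport group rose, while Kifc1 and Kifc5b of the mitotic group were not called. Kifc2, a neuronal minus-end motor, read 8.64, 8.49, 8.59 and 8.59 in globin-labelled arrays, against 8.11, 8.19 and 8.00 in empty vector arrays. It had the widest rise of the motors, 0.48 ± 0.06 (1.39-fold, limma adjusted p = 0.000142), but its other probe set did not pass (0.04 ± 0.05). Of the 20 nearest measured genes around Kifc2 13 were called higher and 0 lower, with a median of 0.23, and their part in the Kifc2 difference was not tested. Kifc3, a motor at cell junctions and the Golgi, read 10.10, 10.01, 9.99 and 9.95 in globin-labelled arrays and 9.80, 9.83 and 9.79 in empty vector arrays. It rose by 0.21 ± 0.04 (limma adjusted p = 0.00525). Kif21a and Kif21b, kinesins that act on microtubule growth, were not called (-0.01 ± 0.04 and 0.09 ± 0.11).

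**Figure D3:**
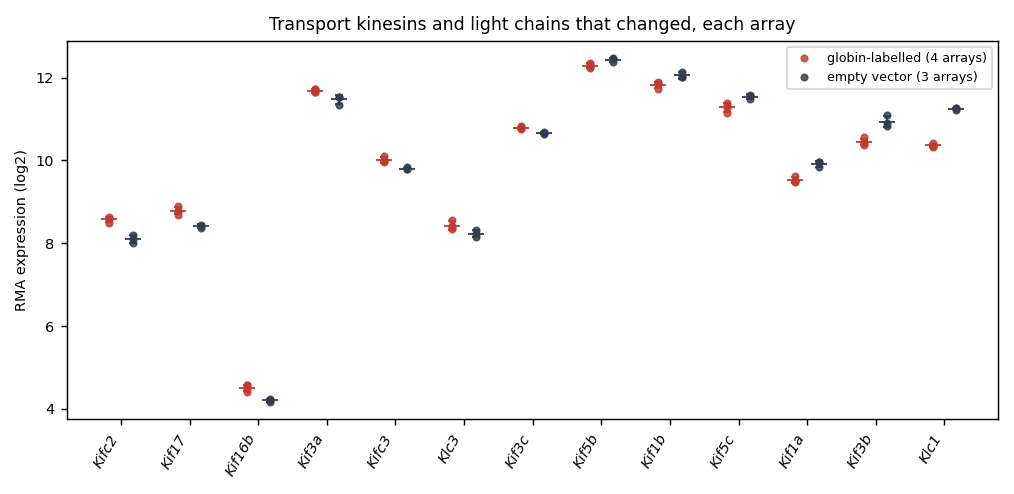
RMA expression on the log2 scale is plotted for the 13 transport kinesins and light chains that changed, ordered by difference, a dot per array, with globin-labelled arrays (4) left of empty vector arrays (3) and bars for the mean ± SD. The groups do not overlap in any of the 13, and the gap is widest for Klc1.

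Of the 3 other kinesins 1 fell, beside 20.1% of all genes lower. Kif2a, which shortens microtubules in axon branches and at spindle poles, read 11.23, 11.14, 11.29 and 11.16 in globin-labelled arrays, against 11.47, 11.45 and 11.46 in empty vector arrays. It fell by 0.25 ± 0.05 (limma adjusted p = 0.00184), as did 2 of its other 4 probe sets, the last 2 of which were not called. Kif12 read 6.78, 6.68, 6.60 and 6.87 in globin-labelled arrays and 6.72, 6.57 and 6.78 in empty vector arrays. It was not called (0.04 ± 0.07), and neither was Kif9 (0.01 ± 0.06). At an unadjusted p under 0.05, 0 of the 3 were higher in limma, and the plain two-sample test called 0 higher.

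Of 15 dynein and dynactin genes, 4 fell and 0 rose, beside 20.1% of all genes lower and 20.6% higher, with a median difference of -0.06. In limma 0 were higher at an unadjusted p under 0.05, and the plain two-sample test called 1 higher, Dynll2, and 2 lower, Dctn4 and Dctn5. Dync1h1, the heavy chain that holds the motor, read 12.11, 11.93, 12.08 and 12.08 in globin-labelled arrays, against 12.19, 12.36 and 12.22 in empty vector arrays. It fell by 0.20 ± 0.06 (limma adjusted p = 0.0235). Dync1li1, a light intermediate chain that binds cargo adaptors, read 10.46, 10.46, 10.20 and 10.09 in globin-labelled arrays and 10.51, 10.63 and 10.74 in empty vector arrays. The globin-labelled arrays spread widely, and the fall of 0.32 ± 0.10 had a limma adjusted p of 0.0280. The intermediate chains Dync1i1 and Dync1i2, which bind dynactin, were not called (-0.06 ± 0.06 and -0.06 ± 0.04), and Dync1i1 lay below the 10th percentile of every array.

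The dynein light chains were not called. These are Dynll1, Dynll2, Dynlrb1, Dynlt1f and Dynlt3, small subunits at the base of the motor, of which 0 of 5 passed in limma in either direction, beside 40.7% of all genes called. Of the 5, 0 had an unadjusted p under 0.05 in limma, while the plain two-sample test called 1. Dynll1 read 13.67, 13.71, 13.69 and 13.66 in globin-labelled arrays and 13.48, 13.58 and 13.66 in empty vector arrays. Empty vector array 3 overlapped the globin-labelled arrays, the difference was 0.11 ± 0.05 (limma adjusted p = 0.113), and Dynll1 passed without that array (0.15, limma adjusted p = 0.0356). The brighter probe set of Dynll2 differed by 0.06 ± 0.04, whereas its other probe set fell by 0.32 ± 0.05 (limma adjusted p = 0.00137). Dynlrb1 (-0.11 ± 0.05) passed without empty vector array 1 (-0.16, limma adjusted p = 0.0395). Dynlt1f has near-identical copies, and its signal may be shared with them.

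Among the Dctn genes the called falls were in subunits of the pointed-end complex, which caps the actin-like filament and binds adaptors. Dctn4 read 10.48, 10.58, 10.38 and 10.47 in globin-labelled arrays, against 10.88, 10.78 and 10.80 in empty vector arrays. It fell by 0.34 ± 0.05 (1.27-fold lower, limma adjusted p = 0.000798), and all of its other 3 probe sets fell, with differences of -0.37 to -0.16. Dctn5 read 11.79, 11.78, 11.82 and 11.83 in globin-labelled arrays against 12.06, 12.05 and 12.08 in empty vector arrays, with tight groups well apart. It fell by 0.26 ± 0.04 (limma adjusted p = 0.000438). Dctn6, the third measured subunit of that end, was not called (-0.07 ± 0.04). Dctn1, the subunit that grips microtubules, Dctn2 and Dctn3 were not called, with differences of -0.08, 0.07 and -0.04. With the mean of all its probe sets Dctn1 was called lower (-0.12). Of the capping protein genes, which are partners outside the rule, Capzb fell by 0.18 ± 0.06 (limma adjusted p = 0.0462), with overlapping groups. Capza1 and Capza2 were not called (0.12 ± 0.04 and -0.05 ± 0.04). The calls of Dctn4 and Dctn5 held under each alternative tried. Without empty vector array 2 the count of dynein and dynactin calls was 2, since Dync1h1 (limma adjusted p = 0.0912) and Dync1li1 (limma adjusted p = 0.0759) were lost. Dync1h1 was also lost without globin-labelled array 2 (limma adjusted p = 0.0514), and Dync1li1 without globin-labelled array 3 or 4 or empty vector array 3 (limma adjusted p = 0.0569 to 0.106). The plain two-sample test called neither (adjusted p = 0.0738 for Dync1h1 and 0.114 for Dync1li1).

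Of 19 myosins 5 fell and 1 rose, beside 20.1% of all genes lower and 20.6% higher, with a median of -0.03. After either other array scaling 5 were lower and 2 higher, since Myo1c then passed. Of 4 skeletal muscle markers Des rose by 0.38 and 3 were not called, with log2 levels summed to 34.65 to 35.12 in globin-labelled arrays and to 34.37 to 34.62 in empty vector arrays, and their part in the myosin values was not tested. Myo7a, a motor of sensory hair cells and the retina, read 7.78, 7.78, 7.91 and 7.85 in globin-labelled arrays, against 8.63, 8.73 and 8.58 in empty vector arrays. It fell by 0.82 ± 0.05 and was 1.76-fold lower (limma adjusted p = 4.19e-06). Myo5a, which carries melanosomes in pigment cells and vesicles and endoplasmic reticulum in neurons, read 10.20, 10.25, 10.23 and 10.18 in globin-labelled arrays and 10.77, 10.69 and 10.86 in empty vector arrays. It fell by 0.56 ± 0.05 (1.47-fold lower, limma adjusted p = 2.31e-05), and its other probe set fell by 0.38 ± 0.06.

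Myo6, the myosin that walks towards the minus end of actin and serves endocytosis, read 9.48, 9.33, 9.34 and 9.38 in globin-labelled arrays, against 9.81, 9.89 and 9.76 in empty vector arrays. It fell by 0.44 ± 0.05 (limma adjusted p = 0.000158). Of its other probe sets 1 fell by 0.20 ± 0.04 and 1 was not called (0.01 ± 0.04). Myo19, a motor bound to mitochondria, read 8.81, 8.79, 8.76 and 8.79 in globin-labelled arrays and 9.16, 9.11 and 9.07 in empty vector arrays, and fell by 0.33 ± 0.04 (limma adjusted p = 0.000164). Both groups were tight and stood apart. Myo15, a motor of the tips of hair cell stereocilia, fell by 0.19 ± 0.05 (limma adjusted p = 0.0203), with 7.89, 7.99, 7.84 and 7.96 in globin-labelled arrays and 8.08, 8.21 and 8.04 in empty vector arrays. It was not called without globin-labelled array 1 or 3 or empty vector array 2 (the highest limma adjusted p was 0.0783), nor by the plain two-sample test.

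Myo18a, an unusual myosin that links Golgi membranes to actin, was the myosin that rose. It read 11.65, 11.57, 11.70 and 11.70 in globin-labelled arrays, against 11.37, 11.42 and 11.36 in empty vector arrays, a rise of 0.27 ± 0.05 (1.21-fold, limma adjusted p = 0.00127). The class I myosins, single-headed motors that act on membranes, held 0 calls in 6 genes in limma, beside 40.7% of all genes called. The plain two-sample test also called 0 of them, and 1 was higher in limma at an unadjusted p under 0.05. That gene was Myo1c, with 10.75, 10.84, 10.83 and 10.86 in globin-labelled arrays and 10.63, 10.71 and 10.74 in empty vector arrays. Its groups stood apart by a narrow margin, and 0.13 ± 0.05 just missed the threshold (limma adjusted p = 0.0503), which it passed without globin-labelled array 1 (0.15, limma adjusted p = 0.0345). None of its other 3 probe sets was called, with differences of 0.04, -0.01 and 0.25 from the brightest to the dimmest. The other 12 myosins that were not called differed by -0.11 to 0.13. Among them the brightest probe set of Myo10, a motor of filopodia, differed by -0.02 ± 0.07 and a dimmer one fell by 0.27 ± 0.05.

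**Figure D4:**
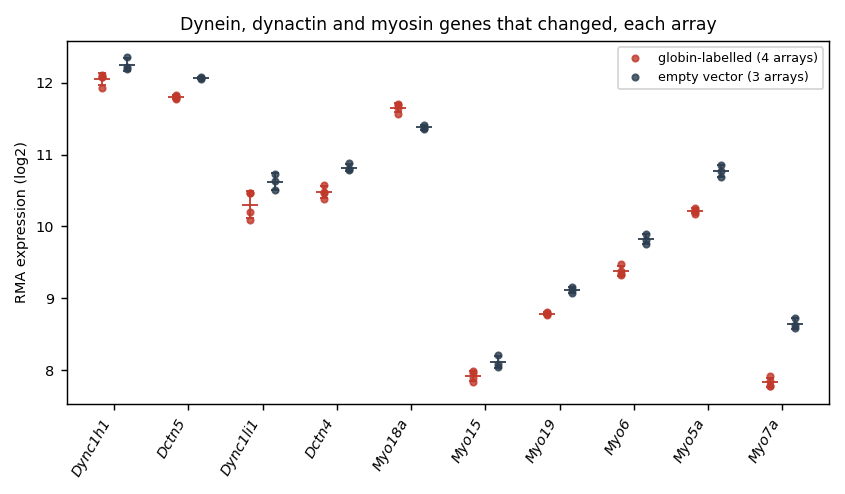
RMA expression on the log2 scale is plotted for the 4 dynein and dynactin genes and the 6 myosins that changed, a dot per array, with globin-labelled arrays (4) left of empty vector arrays (3) and bars for the mean ± SD. Globin-labelled arrays lie lower in 9 of the 10 genes and higher in Myo18a.

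Several probe sets of a gene mostly gave one direction. Over all 125 motor probe sets 18 rose and 38 fell, or 44.8% called beside 39.5% of all probe sets. Of the 65 genes 35 had 1 probe set and 30 had more, and 0 of the 30 had called probe sets in both directions. Of the 16 changed genes with more than 1 probe set, 14 had a further probe set that was called, each in the gene's direction, and in 7 of these all of them were. Kifc2 and Kif16b had no second called probe set. For Dynll2, Kif11 and Myo10 the brightest probe set was not called and another was.

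**Figure D5:**
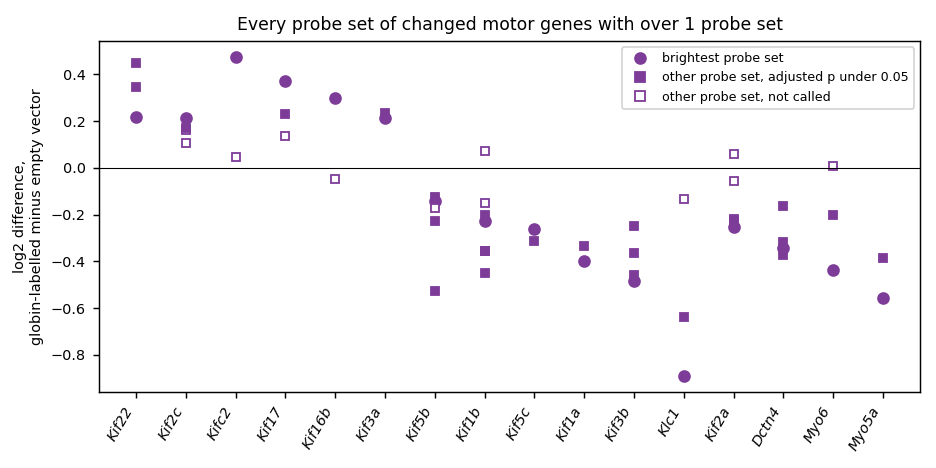
The log2 difference, globin-labelled minus empty vector, is plotted for every probe set of the 16 changed motor genes with more than 1, circles for the brightest probe set, filled squares for others with an adjusted p under 0.05 and open squares for others not called. All filled marks of a gene lie on the same side of 0.

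Genes of motor partners, a list of adaptors, regulators, spindle partners and nonmuscle myosin 2 chains outside the rule, changed in both directions. Of 33 measured among 47 listed, 10 rose and 10 fell, which is 60.6% called beside 40.7% of all genes, with a median of 0.05. Leaving out single arrays gave 14 to 19 calls, with 14 without globin-labelled array 2 and 14 without empty vector array 2. The widest rises were in Racgap1, the partner of Kif23 in centralspindlin, by 0.63 ± 0.06 (limma adjusted p = 2.62e-05), and in Myh14, a nonmuscle myosin 2 heavy chain, by 0.54 ± 0.05 (limma adjusted p = 6.04e-05). Prc1, the microtubule bundler that recruits Kif4 to the spindle midzone, and Cenpe, a kinetochore kinesin, both rose by 0.49 (limma adjusted p = 0.000102 and 0.000491). Rab27a, the small GTPase that couples melanosomes to Myo5a, averaged 7.87 in globin-labelled arrays and 8.46 in empty vector arrays, a fall of 0.59 ± 0.06 (limma adjusted p = 6.49e-05). Spdl1, which brings dynein and dynactin to kinetochores, fell by 0.51 ± 0.04 (limma adjusted p = 1.29e-05).

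Further partners were singled out after their values were seen, because they act on motors described above. The dynein regulators Pafah1b1, also called Lis1, and Ndel1 both fell by 0.23 ± 0.05 (limma adjusted p = 0.00418 and 0.00409), and the dynein adaptor gene Bicd2 fell by 0.16 ± 0.05 (limma adjusted p = 0.0342). Others of that kind were not called, namely Nde1 (-0.11 ± 0.05), the adaptor Hook2 (0.10 ± 0.05) and the kinetochore protein Zw10 (-0.03 ± 0.04). Zwilch, a further kinetochore gene of the list, went the other way and rose by 0.40 ± 0.08 (limma adjusted p = 0.00319). Mapk8ip1 and Mapk8ip3, scaffolds that bind kinesin-1 through its light chains, fell by 0.39 ± 0.05 and fell by 0.19 ± 0.06 (limma adjusted p = 0.000359 and 0.0281). Of the genes that hold motors to mitochondria, Trak1 rose by 0.32 ± 0.06 and Rhot2 fell by 0.20 ± 0.05 (limma adjusted p = 0.00190 and 0.0144), and Rhot1 was not called (-0.02 ± 0.04).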

How the data were processed

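Per the labels' protocols, RNA was turned into biotin-labelled cRNA by a one-cycle kit for the Affymetrix mouse 430A 2.0 array. The log2 values are the authors' RMA output as deposited, per the submitters' processing notes. RMA forces the arrays to like distributions and sums up probes, so a shift common to most transcripts is lost. One more control array, which the design text mentions, was not used here. The file holds 22690 probe sets, from which 64 array controls were removed. The platform annotation gave 1 symbol for 20380, several for 691 and none for 1555. All 65 members matched the RefSeq gene table by Entrez identifier, and 3 probe sets of several Dynlt1 symbols were not members. Groups were compared with limma 3.58.1 in R 4.3.3 (lmFit, eBayes, a two-group model, two-sided tests, Benjamini-Hochberg over 22626 probe sets, 5 residual and 9.10 total degrees of freedom), and intervals are at 95%. On simulated data with 22626 probe sets, 50 were changed at each of 1.2-fold, 1.5-fold, 2-fold and 4-fold, and the rest were left unchanged. The fit recovered 40%, 96%, 100% and 100% of these, with 11 false calls. In the arrays themselves 39.5% of probe sets were called, so the recovery and false calls of this simulation need not carry over. Values in every array are given for up to 6 called members per role with the largest difference and for the brightest member not called, and for further called members added later. Members and lists were chosen with earlier results of these data known. Alternatives changed the array scaling, the variance moderation, the test, a filter on dim probe sets, the probe sets used and single arrays.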

Additional observations from a re-analysis of the deposited data

Results flagged for a closer look

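In 4 of 65 motor genes 1 globin-labelled array stood apart from the other 3 by Dixon's criterion for 4 values, which chance meets in about 1 of 20 groups. Dctn3 read 12.29 in array 2, against 12.32 in the other globin-labelled arrays. Myo9b read 9.79 in array 4, against 9.69 to 9.70. Myo1h read 6.66 in array 3, against 6.72, and Myo5b read 5.64 in array 3, against 5.74. None of these 4 genes was called changed, and in Myo1h and Myo5b the other 3 arrays carried exactly the same value.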

How the results depend on the processing

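Of the 28 called motor genes 17 kept their call under all 14 alternatives, Kif16b kept it under the 13 that included its dim probe set, 10 lost it under at least 1, and 0 turned direction. The 10 were Dync1h1, Dync1li1, Kif20a, Kif2c, Kif3a, Kif3c, Kif5b, Kif5c, Klc3 and Myo15, and 7 genes not called passed under at least 1. Counts stayed within 1.5 times except as follows. With the replicate number as a block, without globin-labelled array 4, 8 transport kinesins were called against 13 and 2 dynein and dynactin genes against 4. The count of all motor genes there, 20 against 28, stayed within 1.5 times. Same-numbered arrays deviated at correlations of -0.36, -0.30 and -0.14, so the numbers do not pair the arrays. Leaving out single arrays gave 22 to 28 motor genes, 3 to 4 mitotic kinesins, 11 to 12 transport kinesins, 2 to 5 dynein and dynactin genes, 5 to 6 myosins and 7803 to 8271 probe sets. The lowest dynein and dynactin count, 2, was without empty vector array 2. With the mean of all probe sets in place of the brightest, Dynll2 turned to -0.13 and was called, since its dimmer probe set fell. Dctn1 was then called lower too (-0.12), so that 6 dynein and dynactin genes were lower against 4. The other scalings moved the median of all genes by 0.01 and -0.01. The plain two-sample test called 23 motor genes. Dim signal limits Kif16b and Dync1i1.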

Other observations

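The genes beside the motors moved differently from gene to gene. Around Klc1, Kif3b, Myo7a and Myo5a the 20 nearest measured genes had median differences of 0.02, 0.04, 0.05 and -0.02. Kif2c and Kif20a were higher in globin-labelled arrays while 11 of 20 neighbours of each were called lower, with medians of -0.32 and -0.14. Around Kif11, which was not called, 12 of 20 neighbours were higher and 3 lower, with a median of 0.24.

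Of the 3 probe sets shared by several Dynlt1 copies, dynein light chain genes, none was called, with differences of 0.06, 0.07 and -0.05. Of the 65 motor genes 24 carried a value that was the same to 6 decimals in 2 or more arrays, and 8 carried it in 3 or more, among which 0 were called. Myo5b had 1 value in 5 of 7 arrays.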
